A study of Mus musculus with 4 samples.

Results

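The genes described here are 8 genes of the Notch pathway, Notch1, Notch2, Notch3, Rbpj, Maml1, Hes1, Nrarp and Dtx1, out of 22350 protein-coding genes annotated on the chromosomes that carry peaks. They were taken by name. E2A ChIP-Seq peaks were counted for a gene when the peak's midpoint lay in the gene body or within 100 kb of it on mm9. This rule gave 51 of the 17532 peaks of the DP list and 0 of the 1516 peaks of the iNKT list. The peaks came from L-DKO mice of 3 to 5 weeks of age, in which floxed Id2 and Id3 were deleted by LckCre, a Cre driven by the Lck promoter in early thymocytes. DP cells (CD1dTet- CD4+ CD8+) and iNKT cells (CD1dTet+ TCRβ+) were sorted from the thymus, with cells of 3 to 4 mice pooled per sample. Both cell types thus lacked Id2 and Id3, and no wild-type peak list was used here. A cell type had 1 E2A library and 1 input, so no replicate gives an error, no test was made between DP and iNKT cells, and the intervals given are for counting error only. Peak lists hold no cell type markers of the kind that RNA gives, and the sorted identities were therefore taken from the labels.

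Notch receptors are cell surface proteins that are cut when they meet a ligand on a neighboring cell, after which their intracellular part moves to the nucleus. There it joins the DNA-binding protein Rbpj and a Mastermind coactivator such as Maml1, and genes such as Hes1, Nrarp and Dtx1 are switched on. Notch1 signals commit progenitors to the T cell lineage and are needed up to the pre-TCR checkpoint, after which Notch1 expression falls. E proteins are known to support Notch1 transcription in early thymocytes, and Id3, which is induced by pre-TCR signals, antagonizes them. E2A binds the E-box, with CAGGTG and CAGCTG as frequent cores, and the core read by Rbpj is TGGGAA.

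Sequences of the mm9 genome under the peaks that the results turn on are shown first. They are the highest peak in or next to Notch3, the pair of high peaks in Notch1, the single peak inside Dtx1 and the highest peak around Hes1, each as 200 bp at the midpoint, on the strand of the gene and from 5′ to 3′. Capitals mark the E-box core CAGGTG, which reads CACCTG on the other strand, the E-box core CAGCTG, and the Rbpj core TGGGAA, which reads TTCCCA on the other strand.
Notch3, intron 1, chr17:32301247-32301446, minus strand: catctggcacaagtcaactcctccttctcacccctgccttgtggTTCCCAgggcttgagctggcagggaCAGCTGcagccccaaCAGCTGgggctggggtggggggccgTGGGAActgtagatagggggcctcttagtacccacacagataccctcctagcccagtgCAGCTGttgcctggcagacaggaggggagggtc
Notch1, 9.73 kb upstream of the start, chr2:26368972-26369171, minus strand: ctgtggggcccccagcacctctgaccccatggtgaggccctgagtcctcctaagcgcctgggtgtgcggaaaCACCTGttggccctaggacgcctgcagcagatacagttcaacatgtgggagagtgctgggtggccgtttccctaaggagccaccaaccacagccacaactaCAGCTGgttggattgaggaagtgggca
Notch1, exon 25, chr2:26323782-26323981, minus strand: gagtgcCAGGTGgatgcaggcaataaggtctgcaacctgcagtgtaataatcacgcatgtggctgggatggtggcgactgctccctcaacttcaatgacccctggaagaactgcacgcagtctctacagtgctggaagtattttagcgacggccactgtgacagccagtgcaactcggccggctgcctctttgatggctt
Dtx1, intron 3, chr5:121135910-121136109, minus strand: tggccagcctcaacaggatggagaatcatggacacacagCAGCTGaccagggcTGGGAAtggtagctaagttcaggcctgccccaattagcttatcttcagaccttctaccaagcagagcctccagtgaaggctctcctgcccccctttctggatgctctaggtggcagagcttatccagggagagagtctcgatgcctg
Hes1, 71.8 kb downstream of the start, chr16:30137111-30137310, plus strand: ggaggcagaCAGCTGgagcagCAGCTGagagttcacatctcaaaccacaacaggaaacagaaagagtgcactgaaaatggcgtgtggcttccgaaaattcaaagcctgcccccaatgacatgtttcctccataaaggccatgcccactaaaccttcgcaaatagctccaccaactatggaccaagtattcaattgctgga

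DP cells had a peak at 7 of the 8 genes, and Rbpj was the exception. Of all protein-coding genes, 65.1% had a DP peak in a window built the same way, so most genes of any kind had one. The iNKT list had a peak at 0 of the 8 genes, where 16.9% of all protein-coding genes had one. A DP peak with no iNKT peak in the window was the state of 7 of the 8 genes and of 49.6% of all protein-coding genes. The number of peaks differed widely between the members. Notch1 and Hes1 had 15 DP peaks each, Dtx1 had 9, Notch3 had 5, Notch2 and Nrarp had 3 each and Maml1 had 1. A gene had a median of 2 DP peaks over all protein-coding genes, and only 1.95% of genes had 15 or more. Windows are longer for longer genes, and per length the densest was Hes1 with 73.7 peaks per Mb, followed by Notch1 with 58.0, Dtx1 with 38.8 and Notch3 with 20.3. The median gene had 6.07 peaks per Mb, and 0.913% of genes were as dense as Hes1.

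**Figure D1:**
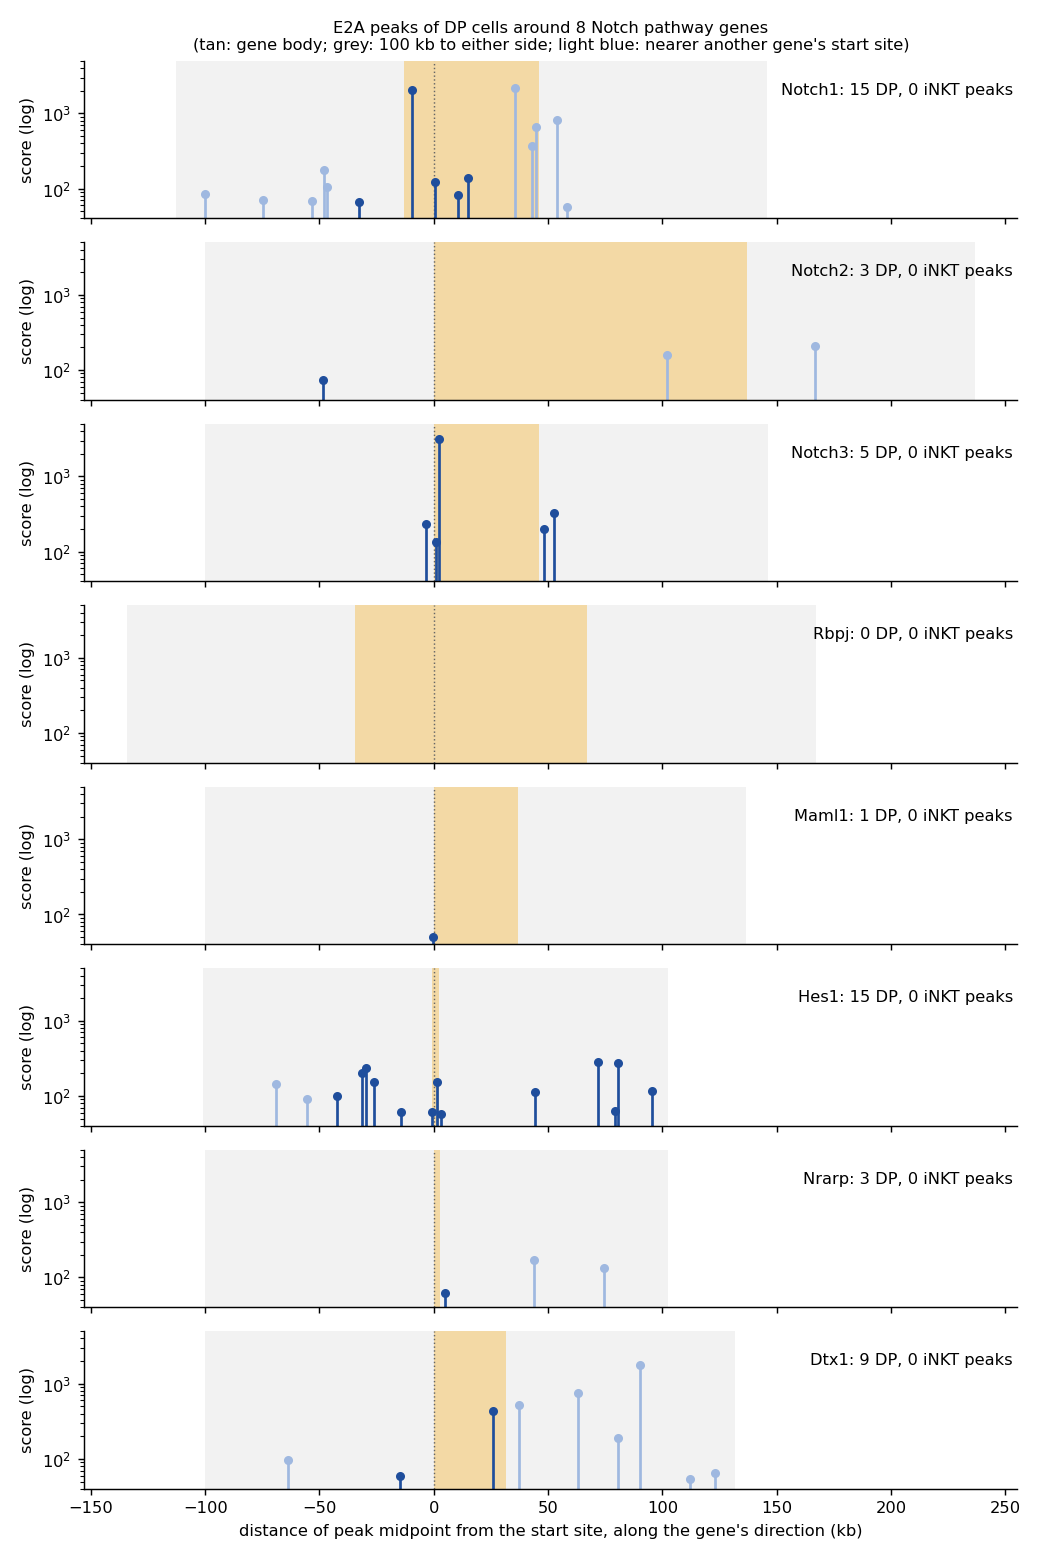
E2A peaks of DP cells around the 8 genes. The horizontal axis is the distance of each peak's midpoint from the gene's start site in kb, with upstream to the left, and the vertical axis is the MACS score on a log scale. Each stem is 1 peak, tan marks the gene body, grey the 100 kb to either side, and light blue stems lie nearer to the start site of another protein-coding gene. High stems stand in Notch1, near the start of Notch3 and downstream of Dtx1, while Hes1 has 15 low stems on both sides and Rbpj has none.

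The score that MACS gave to a peak is 10 times the negative log10 of its p-value, and the lowest score in both lists was 50, or a p-value of 1e-05. The 51 DP peaks at the members had a median score of 137, next to 141 for the whole DP list. A score above the upper quartile of that list, 366, was found for 10 of them, and 14 were below the lower quartile of 76.2. As a group the members' peaks were thus placed like other DP peaks. A score of 1000 or more was reached by 4 of the 51, next to 1668 of the 17532 DP peaks, and these 4 fell to Notch1, Notch3 and Dtx1. The 3 members of 8 can be read against 18.0% of all protein-coding genes with such a peak in the window. Scores were ranked within their own list and not compared between lists, because the depth of both libraries is unknown.

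**Figure D2:**
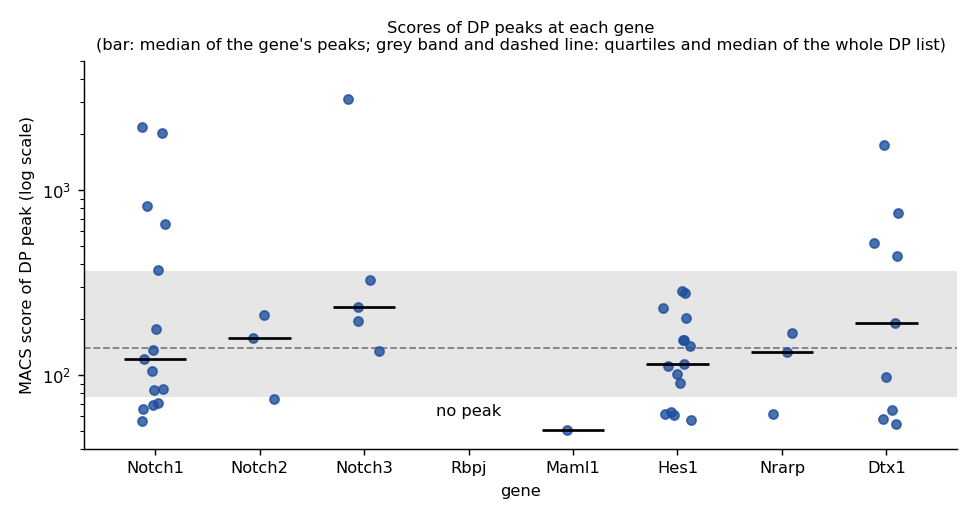
MACS scores of the DP peaks at each gene, on a log scale, with 1 point per peak and a bar at the median of each gene. The grey band and dashed line give the quartiles (76.2 and 366) and the median (141) of the whole DP list. Notch1 and Dtx1 spread from near the calling threshold to 2199 and 1758, the 15 Hes1 peaks stay at 284 or less, and Rbpj has no peak.

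Notch1 encodes the receptor that is required for T cell commitment. It lies at chr2:26313423-26372183 on the minus strand, and its main start site, that of the longest coding transcript, is at 26359342. DP peaks stood both before this start and in the 3′ part of the gene. The highest, at chr2:26323005-26324760, scored 2199, rank 561 of 17532. Its midpoint was in coding exon 25 of 34, 35.5 kb downstream of the start, and the peak covered the annotated start of a processed transcript, Notch1-004, at 26323133. The peak held 5 CAGGTG sites, of which 1, written CAGGTG on the coding strand, is in the exon 25 sequence shown above. The other high peak, at chr2:26368135-26370009, scored 2025, rank 635. Its midpoint was 9.73 kb upstream of the main start, between the starts of other coding transcripts annotated at 26372156 and 26365177, and a CAGGTG site was 25 bp from its midpoint. The peak over the main start itself, at chr2:26357529-26359753, was weak by comparison, with a score of 123 and rank 9562, and no E-box core of either kind was within the central 200 bp.

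Other Notch1 peaks gathered at the 3′ end. A peak at chr2:26313822-26315162 over the last exon had a score of 660, one at chr2:26315818-26317341 in intron 33 had 372, and one past the end, at chr2:26304686-26305931, had 824. Intron 2 held peaks with scores of 137 and 83.1. The 6 peaks farther upstream than 30 kb had scores from 65.4 to 178. Of the 15 Notch1 peaks, 7 had their midpoint inside the gene and 5 were nearer to the start of Notch1 than to that of any other protein-coding gene. The 3′ peaks, including the one in exon 25, were nearer to the start of Sec16a, the next gene on that side, which is 23.1 kb from the peak in exon 25. Peaks with scores of 56.4 and 84.2 lay within 1 kb of the starts of Sec16a and Agpat2.

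Notch3, a receptor that is also expressed in immature thymocytes, had the highest listed score of all members. It lies at chr17:32257765-32303825 on the minus strand. The peak at chr17:32300532-32302163 had a score of 3100, a value that 258 DP peaks share exactly and 26 DP peaks exceed. It was therefore read as a fixed value that stands for a very high score, and its order among the other high scores was not used. Its midpoint was in intron 1, 2.48 kb downstream of the start. The 200 bp shown above held 3 CAGCTG and 2 TGGGAA cores and no CAGGTG. A second peak in intron 1, at chr17:32302192-32303506, had a score of 136, and a peak 3.21 kb upstream had 233. The last pair lay past the end of the gene, 48.2 and 52.6 kb downstream of the start, with scores of 197 and 326. All 5 Notch3 peaks had Notch3 as the gene with the nearest protein-coding start. Which gene they act on was not tested.

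Notch2, the receptor best known from marginal zone B cells, is the longest of the members, at chr3:97817461-97954290 on the plus strand, and had few peaks. The only one inside it, in intron 15 at chr3:97919039-97919541, had a score of 158 and 2 CAGGTG sites in the central 200 bp. One peak 48.5 kb upstream had a score of 74.0, and one beyond the gene, 167 kb downstream of the start, had 211. Its density of 8.91 peaks per Mb was matched or passed by 45.8% of protein-coding genes. The receptors thus differed in the DP list, with highest scores of 2199 at Notch1, the fixed value of 3100 at Notch3, and 211 at Notch2.

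Of the nuclear complex, Rbpj and Maml1 had 1 DP peak between them. Rbpj, at chr5:53947018-54048684 on the plus strand, had none in either list, and the nearest DP peak, at chr5:54386313-54387310 with a score of 92.4, was 338 kb past its end. Maml1, at chr11:50069136-50105838 on the minus strand, had 1 DP peak, at chr11:50105711-50106298. It covered the start site, but its score of 50.7 was just above the threshold and ranked 17357 of 17532. The peak held none of the E-box and Rbpj cores.

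The Notch target genes differed in where their DP peaks lay. Hes1, a basic helix-loop-helix repressor, lies at chr16:30064470-30067882 on the plus strand, with the main start site at 30065426. Its 15 peaks were spread from 68.9 kb upstream to 95.3 kb downstream, and their scores ran from 57.6 to 284 with a median of 115. The highest, at chr16:30136651-30137772, had 2 CAGCTG sites in the sequence shown above and was 71.8 kb downstream, and another, at chr16:30145163-30146793, had a score of 277. On the upstream side, neighboring peaks at 31.2, 29.8 and 26.0 kb had scores of 203, 232 and 154. Hes1 was the gene with the nearest start for 13 of the 15. A weak peak at chr16:30064126-30064906, with a score of 61.6, ended before this start site, and one at chr16:30066343-30067530 inside the gene had a score of 154. No peak covered the main start site, but the weak one covered the start of the processed transcript Hes1-004, at 30064470, which is the annotated 5′ end of the gene, and the one inside covered that of Hes1-002, at 30066424. The weak peak at 63.2, 79.3 kb downstream, held 4 CAGGTG sites in its central 200 bp, more than any other member peak in that width. These 4 lie in repeated copies of a short sequence. Over the whole peak it held 7, next to 9 in the peak of score 755 in the Dtx1 window.

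The 250 bases before the start site of Hes1 are shown because this promoter holds a pair of Rbpj cores, in capitals, that begin 80 and 66 bases before the start.
Hes1, chr16:30065176-30065425, plus strand: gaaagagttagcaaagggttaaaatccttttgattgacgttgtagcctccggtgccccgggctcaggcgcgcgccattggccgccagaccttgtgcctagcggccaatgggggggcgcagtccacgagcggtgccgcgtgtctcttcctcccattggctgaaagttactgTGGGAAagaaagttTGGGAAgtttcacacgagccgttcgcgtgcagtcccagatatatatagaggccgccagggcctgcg
It held neither E-box core. A TGGGAA core was found in 20.7% of the 22350 protein-coding promoters of this length, and at least 2 in 2.54%. The CAGGTG core was found in 16.8%. The same 250 bases of Notch1, Notch2, Notch3 and Nrarp held none of the 3 cores, as did those of Maml1, while those of Rbpj held 2 TGGGAA and 1 CAGGTG and those of Dtx1 held 1 CAGCTG and 1 TGGGAA. The Rbpj bases are those before the start used, at 53981454, and not those before the annotated 5′ end of the gene, at 53947018. A match of this kind is a description of the letters and does not show that a factor was bound.

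Dtx1, an E3 ubiquitin ligase that acts on the Notch pathway, lies at chr5:121130211-121161936 on the minus strand. The 1 peak inside it, at chr5:121135542-121136479 in intron 3, had a score of 438 and ranked 3771, and its central 200 bp held 1 CAGCTG and 1 TGGGAA. The higher peaks of the window lay past its 3′ end and in or at other genes. The highest, at chr5:121070333-121073141 with a score of 1758, was in Ddx54, 90.2 kb downstream of the Dtx1 start. A peak at chr5:121097198-121100223 with a score of 755 had its midpoint 121 bp from the start of Rasal1, and one in Rasal1 had a score of 521. Only 2 of the 9 peaks, with scores of 438 and 58.3, were nearest to the start of Dtx1. Nrarp, which encodes a small ankyrin repeat protein that limits Notch signaling, lies at chr2:25036278-25038850 on the plus strand. It had a peak of score 61.7 at 4.90 kb downstream of its start, and its other peaks, with scores of 170 and 133, were within 1 kb of the starts of Tubb2c and Ndor1.

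Position relative to the genes was summarised over all 51 peaks. Inside a gene body lay 13, at 5 of the 8 members, where 20.4% of protein-coding genes had a DP peak in the body. A peak covered the main start at 2 members, Notch1 and Maml1, next to 9.34% of all genes. With the annotated 5′ end of the gene as the start, these were Hes1 and Maml1. For 28 peaks the nearest start was that of the member, and for 23 it was that of another gene, so a count within 100 kb includes peaks that another gene could equally claim. All 7 members with a DP peak kept at least 1 when only the peaks nearest to their own start were counted, with 5 left at Notch1, 13 at Hes1, 2 at Dtx1 and 1 each at Notch2 and Nrarp.

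E-box and Rbpj cores were counted on both strands in 200 bp at each midpoint. CAGGTG was present at 27 of the 51 member peaks, or 52.9% (exact 95% binomial interval 38.5 to 67.1), and at 43.9% of all DP peaks. CAGCTG was present at 37.3% (24.1 to 51.9) against 29.0%, and neither core at 14 peaks, 27.5% (15.9 to 41.7), against 39.2%. TGGGAA was present at 10 peaks, 19.6% (9.82 to 33.1), against 15.8%, and together with CAGGTG at 4 peaks, 7.84% against 6.68%. For each of the 3 cores, the share of the whole DP list lay inside the interval of the member peaks, so no difference was detectable with 51 peaks. In 400 bp the share with CAGGTG was 60.8% at the members and 61.1% over the list. The median GC content of the windows was 56.0% at the members and 51.0% over the DP list, and its part in these shares was not tested.

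With no iNKT peak within 100 kb of a member, none of the 51 DP peaks overlapped one by 1 bp or more, where 5.99% of all DP peaks did. This 0 follows from the 0 of 8 genes and is no separate result. Taken from the other side, 69.3% of the 1516 iNKT peaks lay over a DP peak. Overlap rose with the score of the DP peak. It was 1.22% for DP peaks below 100 and 31.9% (95% Wilson interval 29.7 to 34.2) for the 1668 peaks at 1000 or more. The list's share was 9.83% (8.50 to 11.3) between 500 and 1000. Of the member peaks, 4 were in the highest class and 4 in the class below it. Those of the highest class were in exon 25 and upstream of the main start of Notch1, in Notch3 and in Ddx54 near Dtx1. So few peaks, with a 0 fixed by the windows, cannot show whether the members differ from other DP peaks of their class. Weaker iNKT signal below the score of 50 is not listed.

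**Figure D3:**
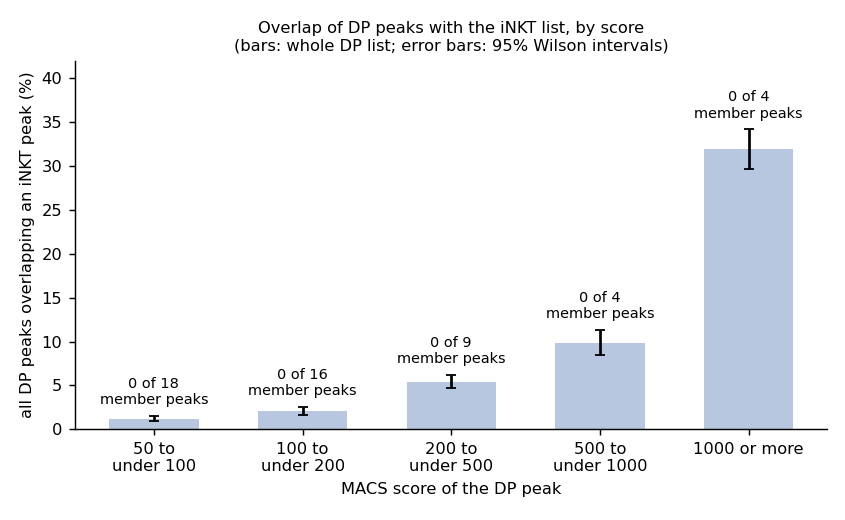
Share of all DP peaks that overlap an iNKT peak, in percent, by the MACS score of the DP peak. Bars are the whole DP list with 95% Wilson intervals, and the text over each bar gives the member peaks of that class and how many of them overlapped. The share rises from 1.22% to 31.9%, and the 0 member peaks of each class follow from the absence of iNKT peaks within 100 kb.

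The nearest iNKT peaks lay between 146 and 1348 kb from the members, and this distance was not computed for other genes. The closest was 146 kb upstream of Nrarp, at chr2:24890112-24891191, with a score of 124 and rank 408 of 1516. Next came one 212 kb upstream of Notch1, at chr2:26583646-26584269, with a score of 51.3 and rank 1452. The distances were 330 kb for Notch3, 532 kb for Hes1, 922 kb for Rbpj, 959 kb for Notch2, 1202 kb for Maml1 and 1348 kb for Dtx1. The peak near Nrarp overlapped a DP peak and the one near Notch1 did not, and both were nearer to the start of another gene, Nelf and Lcn4.

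Other genes of the pathway were looked up from a list of 56, of which 55 are annotated as protein-coding. A DP peak within 100 kb was found at 46 of the 55, or 83.6%, with a median of 4 peaks per gene, and an iNKT peak at 13, or 23.6%. These can be set beside 65.1% and 16.9% of all protein-coding genes. Of the roles, the genes that modify the receptor's sugars had the highest share with an iNKT peak. These were 4 of 5, namely the fringes Lfng, Mfng and Rfng and the fucosyltransferase Pofut1, with scores of 63.4, 211, 239 and 88.2. Each of these 4 peaks overlapped a DP peak, with scores of 1536, 1215, 393 and 1098, but all lay 46.5 kb or more from the gene's start and nearest to the starts of other genes (Grifin, Elfn2, Fasn and Asxl1). Poglut1 had a DP score of up to 479 and no iNKT peak.

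Ligands and the genes of proteolytic processing had no iNKT peak, at 0 of 7 and 0 of 10 genes, where 16.9% of all protein-coding genes had one. All 10 processing genes had a DP peak, and the highest of them, 1166, was 68.5 kb upstream of the presenilin gene Psen2. Among the ligands, 6 of 7 had a DP peak, with the highest score, 2100, at 80.9 kb from Dll3, and Jag1 had none. The other receptor, Notch4, had 4 DP peaks with scores of up to 1611 and no iNKT peak. The highest was outside Notch4, 66.3 kb downstream of its start. Coactivators had DP peaks at 5 of 7 genes, with 2853 inside Maml3, a relative of Maml1 that also had an iNKT peak of 116 in its body over a DP peak of 493. Ep300, a histone acetyltransferase, had an iNKT peak of 55.1 with no DP peak under it. Corepressors had DP peaks at 4 of 7 and iNKT peaks at 2. Hdac1, a histone deacetylase, had a highest DP score of 1757 and 2 iNKT peaks with scores of 95.6 and 76.7. That DP peak was outside Hdac1, 67.5 kb upstream of its start. Ctbp1 had an iNKT peak of 53.8 and no DP peak.

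Genes of endocytosis and turnover had DP peaks at 10 of 11 and iNKT peaks at 4, Itch, Dtx2, Dtx3l and Neurl1a, with scores between 51.3 and 59.1, all near the threshold. The highest DP score of this role was 1466, for a peak outside Itch, 112 kb upstream of its start. Among other targets, 5 of 7 had a DP peak and 1 an iNKT peak. Il2ra, the IL-2 receptor alpha chain of early thymocytes, and Ccnd3, cyclin D3, both had a DP peak at the fixed value of 3100. That of Il2ra was outside the gene, 37.8 kb upstream of its start, and that of Ccnd3 was inside the gene. The Ccnd3 peak overlapped an iNKT peak of 87.6. Hes5, Hes7 and Heyl had DP scores of up to 72.2, 135 and 199, and Hey1 and Hey2 had no peak in either list. Ptcra, the pre-TCR alpha chain, is annotated with another gene type and was left out of these counts. It had 8 DP peaks, the highest with a score of 519 and its midpoint 144 bp upstream of the start, and no iNKT peak. Of the 13 genes with an iNKT peak, Neurl1a was the only 1 whose highest iNKT peak was nearer to its own start than to that of another gene.

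**Figure D4:**
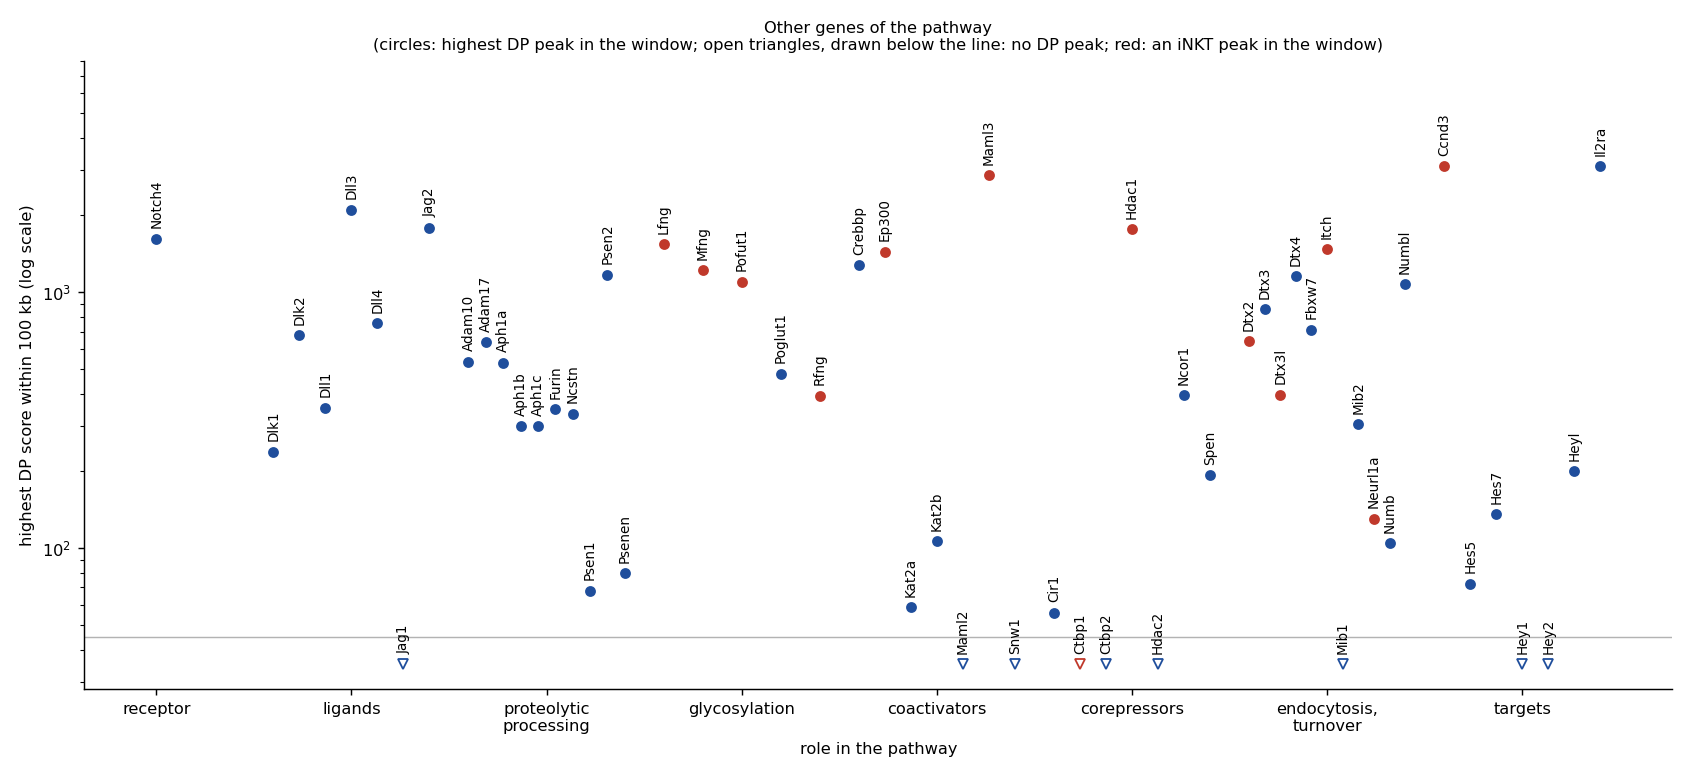
Highest DP score within 100 kb of each of the 55 other protein-coding genes of the pathway, on a log scale, grouped by role. Circles are genes with a DP peak, open triangles below the line are genes without one, and red marks the 13 genes with an iNKT peak in the window. Il2ra and Ccnd3 stand highest at 3100, red is found at 4 of 5 glycosylation genes, and no ligand or processing gene is red. The iNKT peaks of these 4 genes are nearest to the starts of other genes. Of all protein-coding genes, 16.9% have an iNKT peak in the window.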

How the data were processed

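E2A ChIP-Seq of sorted L-DKO DP and iNKT cells was used, with 1 peak list per cell type. Per the labels and the methods of the study, the authors mapped the reads onto mm9 (Bowtie 1.1.2, reads of 1 best alignment kept) and ran MACS 1.4.2 with its default settings against input. The deposited peak lists used here hold intervals and their score, without reads, coverage or summits, so depth is unknown. Discarding reads with several positions lowers the signal in repeated sequence.

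Peaks were assigned by midpoint to gene bodies of GENCODE M1 (NCBIM37, the assembly of mm9) with 100 kb on either side. No peak extended past a chromosome's end. The start site of a gene was that of its longest coding transcript, a choice made after the data were seen, because the 5′ end annotated for Notch1, Hes1, Rbpj and Maml1 belongs to another transcript. RefSeq promoters (GRCm38.p6) of 7 of the 8 genes were found in mm9 by exact match, with a start within 271 bp of the one used. Lists overlapped when peaks shared 1 bp. Cores were searched in mm9, in 200 bp at midpoints. The genes, lists and rules were chosen with earlier results of these data known. By rule, all 8 members were named, with the highest DP peak and the peak nearest to the start of each, and, among other pathway genes, those with an iNKT peak and the highest of each role. One further gene of the pathway was left out of the list and is not reported here. Further peaks and genes were named after their values were seen. With 1 library per group no test was made. Simulated data with known answers gave 9 of 9 checks correct. Alternatives were the window, the minimum score, the overlap, the assignment and the motif window. Python 3.11.15, numpy 2.4.6, pandas 2.3.3, scipy 1.17.1, pysam 0.24.0 and matplotlib 3.10.9 were used.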

Additional observations from a re-analysis of the deposited data

How the results depend on the processing

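No value has a replicate error, and a count was taken as moved when it changed by over 1.5 times. DP peaks were found at 5 to 7 of the 8 genes under every alternative. The number of DP peaks at the members, 51, fell to 21 with a window of 10 kb, to 13 in gene bodies, to 33 and 17 with minimum scores of 100 and 200, and to 28 when only the peaks nearest to the member's start were kept, each by construction. Counts for the iNKT list stayed at 0 under every alternative except a wider window, and DP peaks overlapping an iNKT peak stayed at 0 in each alternative run for them, which did not include that window. Narrower windows, higher scores and stricter overlap cannot raise a 0, so these say nothing of stability. A window of 300 kb, chosen after seeing the data, gave 108 DP peaks and 2 iNKT peaks, at 2 members, of which that of Nrarp overlapped a DP peak and that of Notch1 did not. Within 100 kb there was no iNKT peak for which such an overlap could be given.

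The share of all protein-coding genes with a DP peak became 54.0% with a window of 50 kb, 20.4% in gene bodies, 58.4% over all annotated genes and 54.7% at a score of 100 or more. For iNKT peaks these were 10.4%, 3.00%, 15.2% and 7.52%. With the whole peak searched, 80.4% of member DP peaks held CAGGTG and 68.6% TGGGAA, next to 79.0% and 62.5% of all DP peaks, and in 400 bp these were 60.8% and 31.4%, next to 61.1% and 30.0%. The higher member share of CAGGTG in 200 bp was thus not seen in 400 bp. With the 5′ end of the annotated gene as start, also chosen after seeing the data, the counts were again 2 peaks over a start and 9 within 5 kb, at the same 5 members for the latter. The start peaks were then those of Hes1 (score 61.6) and Maml1 instead of Notch1 and Maml1, and within 5 kb the Notch1 peak of score 123 gave way to that of 2025, at 3.11 kb. No paired analysis was possible because each cell type has 1 E2A library and no test was made.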
